A study of Mus musculus with 12 samples.

Results

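The 10 genes of interest belong to the bone morphogenetic protein (BMP) pathway and its Id targets, and were followed in cultured mouse cardiac fibroblasts with and without Smad7, at rest and after TGF-β1. The genes were taken by name, as Id1, Id2, Id3, Id4, Bmp2, Bmp4, Bmpr1a, Bmpr2, Grem1 and Smad1. All 10 were found among the 35275 genes of the deposited table, and all 10 were among the 15150 genes with enough reads to be tested. RNA-Seq was performed on 12 libraries in 4 conditions with 3 libraries each. Every library came from passage 2 cardiac fibroblasts of 12-week-old C57BL/6 mice carrying a floxed Smad7 allele, and all cells were infected with adenovirus for 48 hours at an MOI of 100. Control cells received an adenovirus that the labels describe as a GFP control and the methods as empty, whereas Smad7-KO cells received an adenovirus expressing Cre recombinase, which deletes DNA between loxP sites. Control and Smad7-KO cells were each studied unstimulated and after TGF-β1, which was given at 10 ng/ml for 2 hours by the sample labels and 4 hours by the protocol. The controls are therefore floxed cells without Cre. No group shows the effect of Cre on cells without a floxed allele, so loss of Smad7 and exposure to Cre virus cannot be told apart. The labels do not say whether the 3 libraries of a condition came from separate isolations, so that p values measure the spread between libraries, which may be technical.

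BMP ligands, such as BMP2 and BMP4, bind a complex of type 1 and type 2 receptors, among them BMPR1A and BMPR2, which phosphorylates Smad1, Smad5 and Smad9. These Smads enter the nucleus with Smad4 and activate target genes, of which the Id genes are the classical example. Id proteins have a helix-loop-helix domain without a DNA-binding region, so they pair with basic helix-loop-helix factors and keep these off DNA. Gremlin 1, the product of Grem1, binds BMP ligands outside the cell and blocks them. Smad6 and Smad7 are inhibitory Smads that act back on the receptors. In fibroblasts, TGF-β1 signals mainly through Smad2 and Smad3, the other branch of the family.

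The 4 Id genes are related copies, and their sequences are shown because reads from such copies could in principle be exchanged between them. The stretch of 96 coding bases of Id1 with the closest matches in the other Id genes was taken, with those matches. In GENCODE M21 on GRCm38, the stretch of Id1 lay at chr2:152736551-152736646 on the plus strand. The stretches most like it lay at chr12:25095774-25095869 on the minus strand for Id2, chr4:136144035-136144130 on the plus strand for Id3 and chr13:48261726-48261821 on the plus strand for Id4. Each stretch lay within 1 exon. They are written 5′ to 3′, and capitals mark the 56 bases that were identical in all 4 genes.
Id1: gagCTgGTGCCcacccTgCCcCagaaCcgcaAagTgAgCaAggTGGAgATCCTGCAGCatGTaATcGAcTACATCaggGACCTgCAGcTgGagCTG
Id2: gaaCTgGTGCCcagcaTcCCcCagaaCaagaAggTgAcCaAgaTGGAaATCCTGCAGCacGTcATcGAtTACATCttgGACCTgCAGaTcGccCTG
Id3: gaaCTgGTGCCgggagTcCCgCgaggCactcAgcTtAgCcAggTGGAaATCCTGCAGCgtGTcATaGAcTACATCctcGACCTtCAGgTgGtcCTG
Id4: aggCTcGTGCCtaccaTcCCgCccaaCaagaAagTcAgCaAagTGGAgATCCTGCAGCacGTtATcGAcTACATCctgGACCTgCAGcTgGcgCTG

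Identity within these stretches ran from 67.7%, for Id3 with Id1 or Id4, to 80.2% for Id1 with Id4. The longest run shared by any pair of the whole transcripts was 19 bases, between Id2 and Id3. No other gene overlapped Id1, Id2, Id3, Bmp2, Bmpr2, Grem1 or Smad1 in the deposited table. Genes on the opposite strand overlapped Bmp4, Bmpr1a and Id4. They held at most 84, 12 and 8 counts in a library, against at least 513, 1320 and 16 counts for the 3 genes themselves. Whether counting used strand is not given in the sources used here.

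Libraries held 19056916 to 25371321 counts (median 22660845). Smad7, the targeted gene, was at 71.4, 74.6 and 77.2 CPM (normalized read counts, scaled to library size) in unstimulated control cells and at 28.6, 28.4 and 31.1 CPM in unstimulated Smad7-KO cells. With TGF-β1 it was at 144.9, 150.3 and 141.9 CPM in control and 80.8, 70.0 and 79.5 CPM in Smad7-KO cells. Smad7 was thus lower in every Smad7-KO library than in any control library of the same stimulation, by 1.34 (adjusted p = 9.02e-06) and 0.92 (adjusted p = 1.15e-04) on the log2 scale. Whether the remaining reads came from the floxed part cannot be read from counts per gene. Unstimulated control library 2 stood apart from the other libraries on the first principal component, and its deviation from the mean of all libraries ran with gene length (Spearman's rho -0.536 across genes). Values without it are given beside those results for the Id genes where a call or the size of a called change turns on it. Fibroblast markers (Col1a1, Pdgfra, Dcn and 5 others) summed to 7213 to 11256 CPM. Macrophage markers summed to 14173 to 23026 CPM, with Lyz2 the most abundant among the genes listed. This sum was above that of the fibroblast markers in every library, so macrophage transcripts were abundant in the cultures. Sums over different genes do not give shares of cells. The 12 endothelial markers summed to 297 to 348 CPM in the 6 control libraries and 52.0 to 62.3 CPM in the 6 Smad7-KO libraries. In bulk samples, fewer cells of a type and less RNA per cell cannot be told apart.

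In unstimulated cells, Smad7-KO was accompanied by lower levels of 4 of the 10 genes. Id1, Id2, Id3 and Bmp4 fell and none rose at an adjusted p of 0.05 or less, where 25.8% of all genes tested passed, 12.1% as higher and 13.7% as lower. In TGF-β1-stimulated cells Id3 and Bmp4 were lower in Smad7-KO than in control cells and none was higher. Of all genes tested, 13% passed there, 5.72% as higher and 7.23% as lower. TGF-β1 lowered Id3 and Bmp4 and raised Bmpr2 in control cells (8.37% of all genes passed, 5.04% as higher and 3.33% as lower). In Smad7-KO cells TGF-β1 raised Id2 and Bmpr2 and lowered Bmp4 (10.2% passed, 5.33% as higher and 4.9% as lower). The interaction, which asks whether the effect of Smad7-KO differs with stimulation, was not past the test for any of the 10 genes (0.0198% of all genes), and 4 of the 10 had an unadjusted p under 0.05 (2.59% of all genes). Libraries of the groups did not overlap for 5 and 6 of the 10 genes in the unstimulated and stimulated Smad7-KO comparisons, beside 41.3% and 44.9% of all genes tested. With TGF-β1 they did not overlap for 6 genes in control cells (19.8% of all genes) and 5 in Smad7-KO cells (39% of all genes). The median log2 fold change of the 10 genes was -0.41 for Smad7-KO in unstimulated cells, against -0.02 for all genes tested. It was -0.13 against -0.02 in TGF-β1-stimulated cells, -0.60 against -0.03 for TGF-β1 in control cells, and 0.04 against -0.01 for TGF-β1 in Smad7-KO cells. Both Smad7-KO comparisons share libraries with both TGF-β1 comparisons, so these values are not independent of each other.

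**Figure D1:**
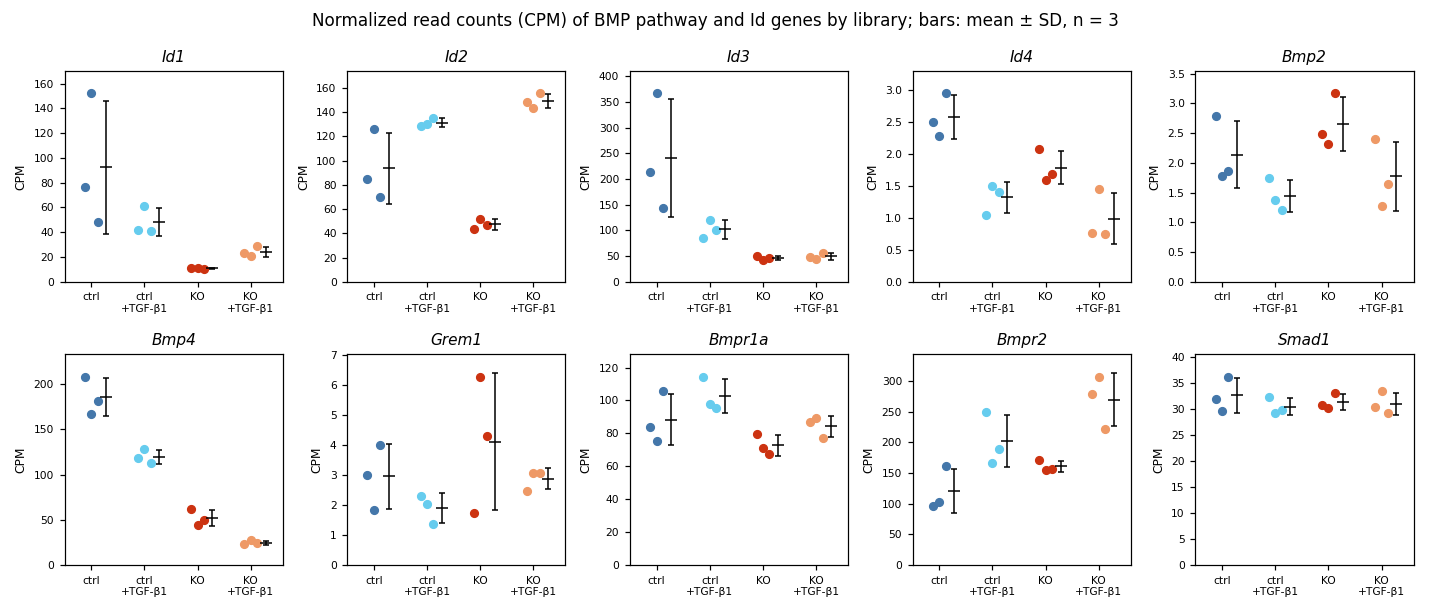
Normalized read counts (CPM, linear axes from 0) of the 10 genes in each of the 12 libraries. Points are libraries by condition (ctrl, control; KO, Smad7-KO) and bars give the mean ± SD of 3 libraries. Bmp4 descends across the 4 conditions without overlap, Id1 and Id3 are lowest in Smad7-KO cells, Id2 is highest in TGF-β1-stimulated cells of both kinds, and Smad1 stays between 29.2 and 36.2 CPM.

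Id1 showed the largest change among the 10 genes. It lies at chr2:152736251-152737410 and is widely used as a readout of BMP signaling. In unstimulated control cells Id1 was at 76.6, 152.2 and 48.6 CPM, and in unstimulated Smad7-KO cells at 10.9, 11.5 and 10.7 CPM. The lowest control library was over 4 times the highest Smad7-KO library, and the control libraries differed among themselves far more than the Smad7-KO libraries did. Id1 was 8.38-fold lower in Smad7-KO cells, with a log2 fold change of -3.07 ± 0.356 (SE, adjusted p = 3.14e-04). Without unstimulated control library 2, which had the highest Id1 level, the log2 fold change was -2.50 (adjusted p = 1.71e-05). The call held in all 14 alternative fits of this comparison, with an adjusted p of up to 0.0187.

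After TGF-β1, Id1 was at 41.8, 61.5 and 41.3 CPM in control cells and 23.2, 21.1 and 28.8 CPM in Smad7-KO cells. The libraries did not overlap, yet the 1.98-fold lower level in Smad7-KO cells did not pass the test (log2 fold change -0.99 ± 0.331, adjusted p = 0.0732). At a similar fold it passed with DESeq2 (adjusted p = 0.0310), with only the libraries of the comparison (adjusted p = 0.00350), with limma at both pseudocounts (adjusted p = 0.0492 and 0.0484) and without unstimulated control library 2 (adjusted p = 0.00310) or 3 (adjusted p = 0.0111). Within control cells the stimulated and unstimulated libraries overlapped (log2 fold change -0.94 ± 0.328, adjusted p = 0.118). Without unstimulated control library 2 this was -0.38 (adjusted p = 0.318), whereas without library 3 it was -1.24 and passed the test (adjusted p = 0.00551). It also passed with DESeq2 (-0.96, adjusted p = 0.0431) and after each library's trend on gene length was removed (-0.62, adjusted p = 0.0161). Within Smad7-KO cells all stimulated libraries lay above all unstimulated libraries, at a log2 fold change of 1.14 ± 0.341 (adjusted p = 0.0560). This difference passed with DESeq2 (adjusted p = 0.00909), with only the libraries of the comparison (adjusted p = 3.33e-06) and without unstimulated control library 2 (adjusted p = 0.00151) or 3 (adjusted p = 0.00708). The effect of Smad7-KO with TGF-β1 exceeded that without it by 2.08 ± 0.473 on the log2 scale. This interaction did not pass the test (adjusted p = 0.803), and passed in 3 of 19 alternative fits. These were DESeq2 (adjusted p = 0.0204), the length trend removed (adjusted p = 0.0119) and the fit without unstimulated control library 3 (adjusted p = 0.0456). Without unstimulated control library 2 the interaction was 1.53 and did not pass (adjusted p = 0.195).

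Id3 followed an order of conditions like that of Id1 but did not rise with TGF-β1 in Smad7-KO cells. It lies at chr4:136143497-136145755 and was the most abundant of the 10 genes per length in unstimulated control cells. Its libraries were at 214.4, 366.6 and 142.9 CPM in unstimulated control and 49.5, 42.5 and 46.4 CPM in unstimulated Smad7-KO cells. No library of either genotype overlapped the other, and the level was 5.23-fold lower (log2 fold change -2.39 ± 0.284, adjusted p = 3.55e-04). Without unstimulated control library 2 it was -1.95 (adjusted p = 2.64e-05). The call for Id3 held in all 14 alternative fits of this comparison, with an adjusted p of up to 0.0215.

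With TGF-β1, Id3 was at 84.9, 120.2 and 100.6 CPM in control cells, below every unstimulated control library (log2 fold change -1.24 ± 0.274, adjusted p = 0.0142). This call is lost without TGF-β1 control library 1 (adjusted p = 0.0724) or library 3 (adjusted p = 0.0618), and the log2 fold change is -0.81 (adjusted p = 0.00973) without unstimulated control library 2. In TGF-β1-stimulated Smad7-KO cells Id3 was at 47.6, 43.9 and 57.0 CPM, so it was 2.06-fold lower than in stimulated control cells (log2 fold change -1.04 ± 0.274, adjusted p = 0.0283). That call is lost when TGF-β1 control library 2 or 3 or any of the 3 TGF-β1 Smad7-KO libraries is left out (adjusted p = 0.0566 to 0.123). Stimulated and unstimulated Smad7-KO libraries overlapped for Id3, with a log2 fold change of 0.10 ± 0.273 and an interval of ± 2 SE from -0.44 to 0.65. The interaction was 1.34 ± 0.385 (adjusted p = 0.980). It passed in 1 of 19 alternative fits, with the length trend removed (1.08, adjusted p = 0.0307). Without unstimulated control library 2 the interaction was 0.92 (adjusted p = 0.897).

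Id2 was the most abundant Id gene per length in TGF-β1-stimulated cells, and TGF-β1 raised it in Smad7-KO cells. The gene lies at chr12:25093801-25096092. It was at 84.5, 126.2 and 69.9 CPM in unstimulated control cells and 43.5, 51.9 and 46.6 CPM in unstimulated Smad7-KO cells. No libraries overlapped, and the level in Smad7-KO cells was 1.98-fold lower (log2 fold change -0.98 ± 0.177, adjusted p = 0.00363). Without unstimulated control library 2 the log2 fold change was -0.70 (adjusted p = 7.25e-04). The call is lost when the model is fitted to the 6 libraries of this comparison alone (adjusted p = 0.0635).

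With TGF-β1, Id2 reached 128.4, 130.2 and 135.3 CPM in control cells and 148.7, 143.4 and 155.6 CPM in Smad7-KO cells. In Smad7-KO cells TGF-β1 raised Id2 3.15-fold (log2 fold change 1.66 ± 0.179, adjusted p = 9.76e-05). In control cells all stimulated libraries also lay above all unstimulated libraries, without passing the test (log2 fold change 0.49 ± 0.175, adjusted p = 0.127). Without unstimulated control library 2 that difference is 0.76 (adjusted p = 3.97e-04). It also passed with limma at both pseudocounts (adjusted p = 0.0342 and 0.0360). After each library's trend on gene length was removed it was 0.73 (adjusted p = 4.42e-05). Stimulated Smad7-KO libraries lay above stimulated control libraries by 0.18 ± 0.174 on the log2 scale (adjusted p = 0.496). The interaction was 1.17 ± 0.248 (adjusted p = 0.786), and passed in 3 of 19 alternative fits. These were DESeq2 (adjusted p = 0.0206), the length trend removed (adjusted p = 0.00981) and the fit without unstimulated control library 3 (adjusted p = 0.0456). Without unstimulated control library 2 the interaction was 0.90 and did not pass (adjusted p = 0.0742).

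Id4 was nearly absent beside the other Id genes, with 16 to 70 counts per library. It lies at chr13:48261427-48264036. Its level was 2.5, 2.3 and 3.0 CPM in unstimulated control, 1.1, 1.5 and 1.4 CPM in stimulated control, 2.1, 1.6 and 1.7 CPM in unstimulated Smad7-KO and 0.76, 1.4 and 0.75 CPM in stimulated Smad7-KO cells. Stimulated libraries lay below unstimulated libraries in both kinds of cells. The log2 fold changes with TGF-β1 were -0.97 ± 0.280 in control cells (adjusted p = 0.0565) and -0.85 ± 0.293 in Smad7-KO cells (adjusted p = 0.09997), so neither passed the test. In control cells the difference passed with DESeq2 (adjusted p = 0.0112), with limma on log2(FPKM + 1) (adjusted p = 0.0389) and without unstimulated control library 2 (adjusted p = 0.0422). In Smad7-KO cells it passed without TGF-β1 Smad7-KO library 2 (log2 fold change -1.23, adjusted p = 0.0259). At this depth no change of Id4 with Smad7-KO passed the test. In unstimulated cells Smad7-KO libraries lay below control libraries, with a log2 fold change of -0.54 (adjusted p = 0.152). Its interval of ± 2 SE ran from -1.09 to 0.01. In stimulated cells the libraries overlapped, with a log2 fold change of -0.42 (interval from -1.02 to 0.17, adjusted p = 0.362).

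Per length, Id4 was the lowest of the 4 Id genes in every condition, and Id1 was below Id3. In unstimulated control cells Id3 stood at 184 ± 74.3 FPKM, Id1 at 77.2 ± 39.3 FPKM and Id2 at 72.2 ± 17.3 FPKM (SD, n = 3), and Id1 and Id2 overlapped. In TGF-β1 control cells Id2 led with 105 ± 2.69 FPKM, ahead of Id3 at 80.7 ± 13.6 FPKM and Id1 at 42.0 ± 9.89 FPKM, without overlap. In unstimulated Smad7-KO cells Id2 and Id3 overlapped at 37.6 ± 3.33 and 36.4 ± 2.82 FPKM, and Id1 was at 9.58 ± 0.347 FPKM. In TGF-β1 Smad7-KO cells Id2 stood at 116 ± 4.92 FPKM, Id3 at 38.1 ± 5.23 FPKM and Id1 at 20.6 ± 3.39 FPKM. Id4 did not exceed a mean of 1.55 FPKM in any condition. Across the 12 libraries Id1 and Id3 ran together with a Pearson's r of 0.933 on log2 CPM, against 0.552 for Id1 and Id2, where points share their condition and no p is given.

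The genes whose log2 CPM over the 12 libraries was most like that of Id1 were Kcmf1 and Tead2 (both r = 0.969), Ecscr and Ephx2 (both r = 0.968) and 2010012O05Rik (r = 0.966). For Id3 they were Dexi and Glod4 (both r = 0.982), Abhd8 (r = 0.978), Igfbp4 and Yars (both r = 0.975). For the antagonist Grem1, which is described among the secreted proteins, they were Rad18 (r = 0.891), Tmem116, Klf11, Nfkbiz and Chic1, down to r = 0.758. These correlations take in the differences between conditions and between libraries alike.

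**Figure D2:**
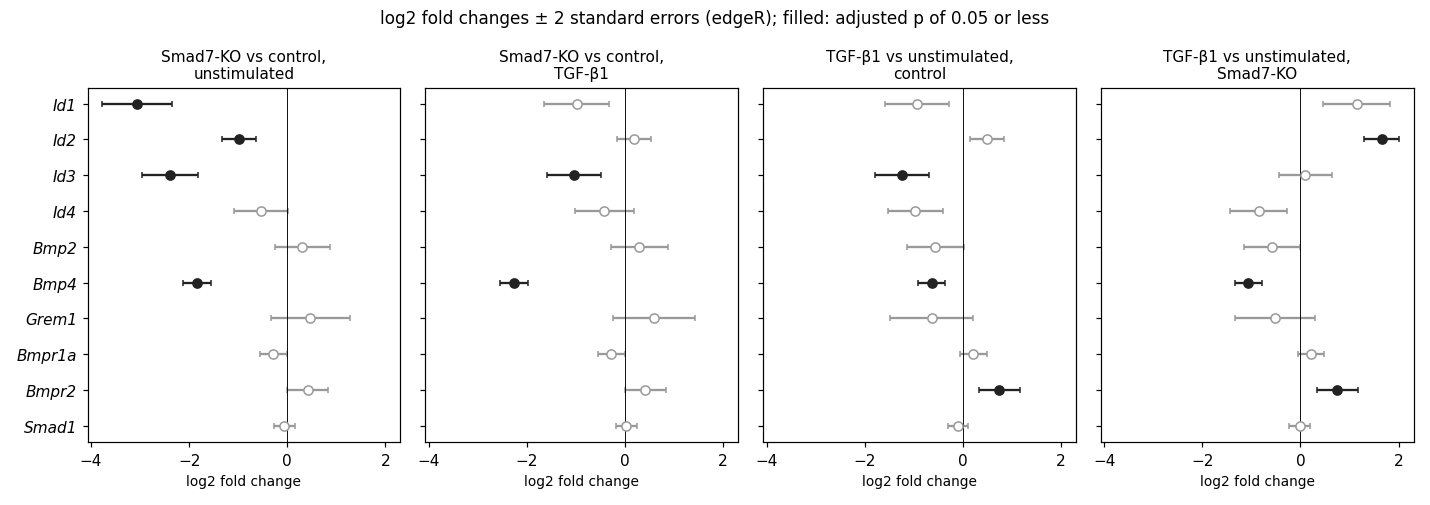
log2 fold changes (x axis) of the 10 genes in the 4 comparisons, with bars of ± 2 standard errors and filled points for an adjusted p of 0.05 or less. Bmp4 is lower in all 4 panels, Id1 has the largest change at -3.07 in unstimulated cells, and the bars of Smad1 cross 0 in every panel.

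Among the ligands, Bmp4 was lower in Smad7-KO cells under both conditions, and TGF-β1 lowered it further. Bmp4 lies at chr14:46383520-46390669 on the minus strand and encodes a BMP ligand made by stromal cells. It was at 208.3, 166.6 and 181.8 CPM in unstimulated control cells, 118.1, 128.1 and 112.3 CPM in stimulated control cells, 61.5, 44.5 and 49.5 CPM in unstimulated Smad7-KO cells and 23.0, 27.2 and 24.2 CPM in stimulated Smad7-KO cells. The libraries of the 4 conditions did not overlap anywhere in this order. The spread between libraries was small beside the distance between conditions.

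Bmp4 was 3.58-fold lower in unstimulated Smad7-KO cells (log2 fold change -1.84 ± 0.139, adjusted p = 1.48e-05). With TGF-β1 it was 4.82-fold lower (log2 fold change -2.27 ± 0.142, adjusted p = 4.88e-06). TGF-β1 lowered it 2.09-fold in Smad7-KO cells (log2 fold change -1.06 ± 0.138, adjusted p = 3.79e-04) and 1.55-fold in control cells (log2 fold change -0.63 ± 0.135, adjusted p = 0.0114). The last call is lost without unstimulated control library 1 or TGF-β1 control library 1 or 3 (adjusted p = 0.0507 to 0.0641). The interaction was -0.43 ± 0.191 (adjusted p = 0.980).

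Bmp2, which encodes a close relative of BMP4, was at a low level throughout, with 25 to 73 counts per library. It lies at chr2:133552159-133562885. It was at 2.8, 1.8 and 1.9 CPM in unstimulated control, 1.7, 1.4 and 1.2 CPM in stimulated control, 2.5, 2.3 and 3.2 CPM in unstimulated Smad7-KO and 2.4, 1.3 and 1.7 CPM in stimulated Smad7-KO cells. Stimulated control libraries lay below those of unstimulated control and unstimulated Smad7-KO cells, and with the conditions ordered by their mean each overlapped the next. Log2 fold changes lay between -0.58 and 0.31, with adjusted p from 0.289 to 0.521, so that Bmp2 did not pass the test in any of the 4 comparisons. For Smad7-KO in unstimulated cells the interval of ± 2 SE ran from -0.25 to 0.87. Per length in unstimulated control cells, Bmp4 stood at 89.7 ± 14.6 FPKM and Bmp2 at 0.60 ± 0.177 FPKM.

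Grem1, the BMP antagonist, was also low and varied between libraries of the same condition. It lies at chr2:113746164-113758646 on the minus strand. The 3 unstimulated Smad7-KO libraries were at 1.7, 6.3 and 4.3 CPM, from 35, 146 and 99 counts. Unstimulated control cells were at 3.0, 1.8 and 4.0 CPM, TGF-β1 control cells at 2.3, 2.0 and 1.4 CPM and TGF-β1 Smad7-KO cells at 2.5, 3.1 and 3.1 CPM. Stimulated Smad7-KO libraries lay above stimulated control libraries without passing the test (log2 fold change 0.59 ± 0.420, adjusted p = 0.370). The other 3 comparisons overlapped, with adjusted p of 0.383 to 0.592. Its intervals of ± 2 SE were the widest of the 10 genes, and ran from -0.34 to 1.28 for Smad7-KO in unstimulated cells.

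Of the receptors, Bmpr1a, which encodes a type 1 receptor, did not pass the test in any comparison. It lies at chr14:34410734-34503341 on the minus strand. It was at 83.8, 75.4 and 105.7 CPM in unstimulated control, 114.5, 97.6 and 95.5 CPM in stimulated control, 79.5, 71.2 and 67.4 CPM in unstimulated Smad7-KO and 86.6, 89.3 and 77.2 CPM in stimulated Smad7-KO cells. The log2 fold change with Smad7-KO was -0.28 ± 0.136 in both unstimulated (adjusted p = 0.133) and stimulated cells (adjusted p = 0.196). Once each library's trend with gene length was removed, it was -0.64 (adjusted p = 1.01e-04) and -0.48 (adjusted p = 8.73e-04).

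Bmpr2, the type 2 receptor, was higher with TGF-β1 in both kinds of cells. It lies at chr1:59763400-59879014 and, with 12899 exon bases, was longer than 99.4% of the genes tested. Its level was 95.6, 103.4 and 161.5 CPM in unstimulated control, 249.6, 166.5 and 189.8 CPM in stimulated control, 170.5, 155.6 and 155.7 CPM in unstimulated Smad7-KO and 278.7, 307.0 and 221.9 CPM in stimulated Smad7-KO cells. TGF-β1 libraries lay above unstimulated libraries of the same genotype throughout. The log2 fold change was 0.75 ± 0.209 in control (adjusted p = 0.0487) and 0.75 ± 0.209 in Smad7-KO cells (adjusted p = 0.0434). The calls lie close to the threshold, and are lost in 9 of 14 alternative fits in control and 8 of 14 in Smad7-KO cells. Both are lost with limma on log2(FPKM + 1) (adjusted p = 0.0535 and 0.0769). They are also lost in 4 and 5 of the 6 fits that leave out a library of the comparison (adjusted p up to 0.208 and 0.167).

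For Smad7-KO, Bmpr2 had log2 fold changes of 0.42 ± 0.209 (adjusted p = 0.143) and 0.41 ± 0.208 (adjusted p = 0.212) in unstimulated and stimulated cells. With the trend on gene length removed these became -0.27 (adjusted p = 0.140) and -0.003 (adjusted p = 0.989), so no direction is given for Bmpr2 with Smad7-KO. Without unstimulated control library 3, the highest of its condition, the difference in unstimulated cells was 0.69 (adjusted p = 0.00587).

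Smad1, the transducer that carries the BMP signal from the receptors, was the most even of the 10 genes. It lies at chr8:79338395-79399518 on the minus strand. All 12 libraries were between 29.2 and 36.2 CPM, and every pair of conditions next to each other overlapped. Smad7-KO gave log2 fold changes of -0.06 (interval of ± 2 SE from -0.27 to 0.15) in unstimulated and 0.03 (from -0.19 to 0.24) in stimulated cells. TGF-β1 gave -0.10 (from -0.31 to 0.11) in control and -0.02 (from -0.23 to 0.19) in Smad7-KO cells. These intervals hold no change of Smad1 mRNA above about 0.31 on the log2 scale. Phosphorylation of Smad1 was not measured here.

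Of 50 further genes of the BMP pathway found by name, 37 were tested. In unstimulated cells 13 were lower and 1 was higher in Smad7-KO than in control cells, beside 13.7% lower and 12.1% higher among all genes tested. In stimulated cells 13 were lower and none was higher, beside 7.23% lower and 5.72% higher among all genes. The median log2 fold change was -0.28 and -0.33, against -0.02 for all genes tested in both comparisons. TGF-β1 raised 7 and lowered 2 of the 37 in control cells, beside 5.04% higher and 3.33% lower among all genes tested. It raised 9 and lowered 3 in Smad7-KO cells, beside 5.33% and 4.9%. The medians were 0.11 and 0.08. The same shares of all genes tested stand beside the counts of the smaller lists below.

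Of 6 other Smad and Smad ubiquitin ligase genes, 2 were lower in each Smad7-KO comparison. Smad6, an inhibitory Smad that acts mostly on BMP receptors and is itself a BMP target, was at 144.0, 102.7 and 141.5 CPM in unstimulated control and 31.6, 29.2 and 30.9 CPM in unstimulated Smad7-KO cells. No libraries overlapped, and the log2 fold change was -2.08 ± 0.138 (adjusted p = 6.90e-06). With TGF-β1, Smad6 was at 159.6, 188.3 and 169.9 CPM in control and 73.9, 64.8 and 74.6 CPM in Smad7-KO cells, a log2 fold change of -1.28 ± 0.134 (adjusted p = 1.85e-04). TGF-β1 raised Smad6 in Smad7-KO cells by 1.22 (adjusted p = 1.19e-04) on the log2 scale, whereas the difference in control cells was 0.42 (adjusted p = 0.0829). Smad9, another receptor-regulated Smad of the BMP branch, was lower in Smad7-KO cells by 1.41 (adjusted p = 0.00276) and 1.11 (adjusted p = 0.0130). The ubiquitin ligase gene Smurf1 rose with TGF-β1 in control cells by 0.84 (adjusted p = 0.0414).

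Of 5 tested BMP-induced genes other than the Id genes, 4 were lower with Smad7-KO in unstimulated and 2 in stimulated cells. Atoh8, a helix-loop-helix factor, was at 100.0, 101.0 and 77.9 CPM in unstimulated control and 34.5, 29.6 and 36.5 CPM in unstimulated Smad7-KO cells (log2 fold change -1.47, adjusted p = 1.02e-04). Its log2 fold change with Smad7-KO was -1.08 (adjusted p = 9.41e-04) in stimulated cells. TGF-β1 lowered it by 1.63 in control and by 1.23 in Smad7-KO cells on the log2 scale. The homeobox gene Msx1 had log2 fold changes of -0.96 and -0.998 with Smad7-KO. Bambi, which encodes a pseudoreceptor, and Hey1, which encodes a Notch and BMP target, were lower in unstimulated Smad7-KO cells (-1.17 and -1.11). In stimulated cells their differences were -0.18 and -0.50 and did not pass (adjusted p = 0.630 and 0.302), and their interactions did not pass either (both adjusted p = 0.980). They rose with TGF-β1 in Smad7-KO cells (1.05 and 1.61).

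Secreted antagonists and modulators other than Grem1 gave 3 lower genes of 13 tested in unstimulated and 5 in stimulated cells, with none higher. Nog, which encodes the antagonist noggin, was at 3.3, 3.3 and 2.9 CPM in unstimulated control and 0.94, 1.3 and 0.69 CPM in unstimulated Smad7-KO cells, a log2 fold change of -1.66 (adjusted p = 0.00245). It was -0.89 (adjusted p = 0.0257) with TGF-β1. TGF-β1 raised Nog by 1.85 in control and 2.62 in Smad7-KO cells. Fst, which encodes follistatin, a binder of activins and some BMPs, was lower with Smad7-KO by 1.47 and 1.09 and higher with TGF-β1 by 0.93 and 1.31. Nbl1 was lower by 0.67 and 0.64, and Chrd and Crim1 passed with TGF-β1, lower by 0.58 and 0.78. In total TGF-β1 raised 5 of the 13 in either kind of cell, and Fstl3 (1.5003 and 1.58), Tsku (1.00 and 0.75) and Fstl1 (0.62 and 0.50) were the others. Crim1 fell with TGF-β1 in Smad7-KO cells by 0.69.

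Of 4 other ligands tested, 2 were lower in each Smad7-KO comparison. Bmp6 was lower with Smad7-KO by 1.08 (adjusted p = 0.00566) and 1.25 (adjusted p = 0.00333), and Gdf6 by 0.38 and 0.43. Of 9 other receptors and co-receptors tested, Eng and Acvrl1 were lower in both comparisons, Eng by 0.97 and 0.87 and Acvrl1 by 0.47 and 0.30. These encode endoglin and ALK1, a co-receptor and a type 1 receptor best known from endothelial cells. Acvr2b was higher by 0.72 in unstimulated cells (adjusted p = 0.0483). TGF-β1 raised Acvr1, another type 1 receptor, by 0.88 and 0.83. Rgma, a co-receptor, fell by 0.71 in control cells, and the ligand Bmp3 fell by 1.78 in Smad7-KO cells.

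**Figure D3:**
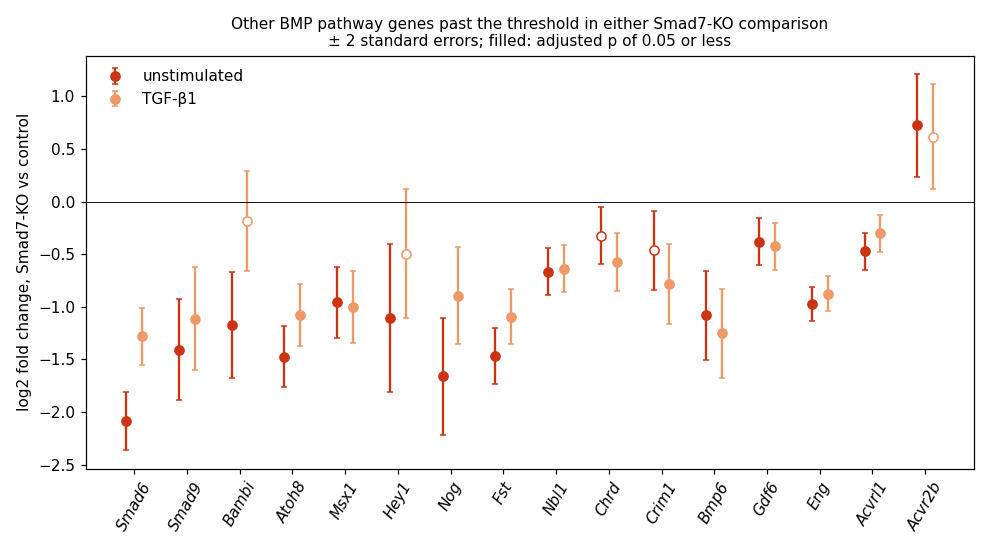
log2 fold changes (y axis) with Smad7-KO for the 16 further BMP pathway genes past the test in either comparison, in unstimulated (dark) and TGF-β1-stimulated (light) cells. Bars are ± 2 standard errors and filled points have an adjusted p of 0.05 or less. All but Acvr2b lie below 0, and Smad6 is lowest at -2.08 in unstimulated cells.

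Basic helix-loop-helix factors that Id proteins pair with, or that act at the same DNA elements, were taken as a further list of 7 genes. With Smad7-KO, 3 of the 7 were lower and none higher in both comparisons, beside 13.7% and 7.23% lower among all genes tested. Hes1 had log2 fold changes of -1.94 and -1.39, Tcf21, which is also among the fibroblast markers, of -1.30 and -0.88, and Twist1 of -1.15 and -0.78. TGF-β1 did not change any of the 7 past the test. For comparison, 9 of 11 tested genes of the immediate response to TGF-β were higher with TGF-β1 in control cells and 9 of 11 in Smad7-KO cells, with median log2 fold changes of 1.51 and 1.75. Among all genes tested 5.04% and 5.33% were higher.

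The endothelial markers moved in the same direction as many of these genes. In unstimulated cells 8 of 11 tested were lower with Smad7-KO and 1 was higher, with a median log2 fold change of -3.48, and with TGF-β1 the counts were the same, with a median of -2.80. Among all genes tested 13.7% were lower and 12.1% higher in unstimulated cells, and 7.23% and 5.72% with TGF-β1. These shares also stand beside the counts of the other cell types below. Cdh5, the gene for VE-cadherin, was at 37.3, 23.1 and 42.4 CPM in unstimulated control and 3.3, 2.5 and 3.4 CPM in unstimulated Smad7-KO cells. Vwf was the marker that was higher. Cldn5 was at 0 in all TGF-β1 Smad7-KO libraries and at 0.23 CPM or less elsewhere. Id1, Id3, Smad6, Eng and Acvrl1 are also expressed by endothelial cells, and the part of endothelial transcripts in the lower levels in Smad7-KO cells was not tested. With TGF-β1 the sum of the markers was 306 to 348 CPM in control and 53.2 to 55.6 CPM in Smad7-KO cells, beside 297 to 341 and 52.0 to 62.3 CPM without it. Fibroblast markers were higher for 2 and lower for 1, Tcf21, of 8 tested in each Smad7-KO comparison (medians 0.12 and -0.06). Macrophage markers were higher for 4 of 8 tested in each Smad7-KO comparison (medians 0.59 and 0.54), and mesothelial markers were lower for 4 and 2 of 6. Cardiomyocyte markers were lower for 2 of 5 tested in unstimulated cells (median -1.12) and for none in stimulated cells (median 0.10). In unstimulated cells the groups did not overlap for any of the 5, beside 41.3% of all genes tested. The sum of the cardiomyocyte markers was 36.3 to 79.4 CPM in unstimulated control and 19.4 to 25.6 CPM in unstimulated Smad7-KO cells. Smooth muscle and pericyte markers were lower for 2 and 1 of 5 tested (medians -0.76 and -0.58). The part of these cell types in the lower Id levels was not tested.

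**Figure D4:**
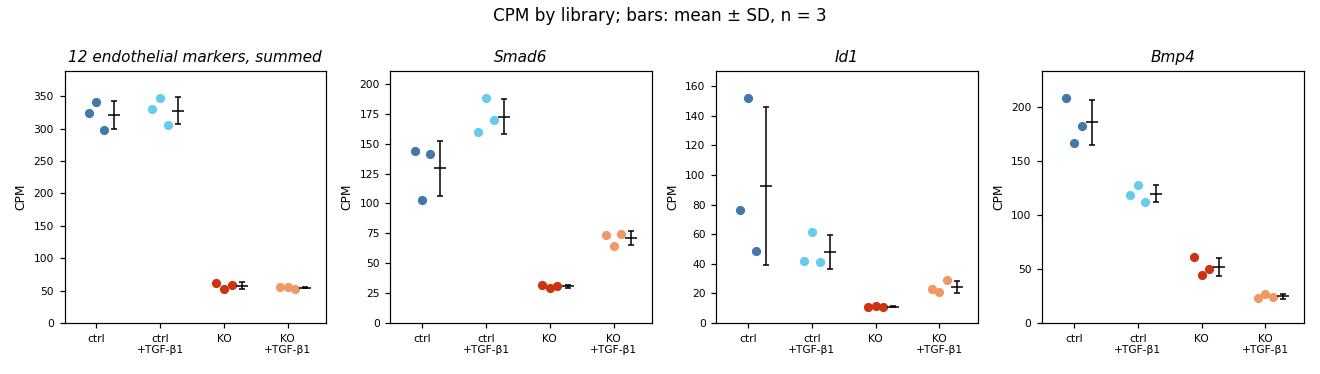
CPM by library (linear axes from 0) of the sum of 12 endothelial markers, Smad6, Id1 and Bmp4 in the 4 conditions (ctrl, control; KO, Smad7-KO), with the mean ± SD of 3 libraries. All 4 are lower in Smad7-KO cells, and between stimulated and unstimulated cells the marker sum overlaps while Bmp4 does not.

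The trend with gene length differed between libraries of a condition as well as between genotypes. Spearman's rho of each library's deviation with gene length was -0.404, -0.536 and 0.296 in unstimulated control libraries. In TGF-β1 control libraries it was 0.201, -0.372 and -0.169. It was 0.332, 0.253 and 0.261 in unstimulated Smad7-KO libraries and 0.340, 0.383 and 0.0715 in TGF-β1 Smad7-KO libraries. The Id genes have 1160 to 1660 exon bases, so that 10.8% to 20.3% of the genes tested were shorter. The genes tested were split by length into 3 equal parts. Of those passing the test with Smad7-KO in unstimulated cells, 13.4% were higher in the shortest part, against 79.2% in the longest part. With TGF-β1 the shares were 19.7% and 63.4%. After each library's trend on gene length was removed, the log2 fold changes with Smad7-KO in unstimulated cells were -2.50 for Id1, -0.52 for Id2 and -1.88 for Id3. Bmp4 was then at -1.64 and Smad6 at -2.06, and all 5 stayed past the test (adjusted p of 6.22e-04 or less). In stimulated cells Id2 then had a log2 fold change of 0.42 with Smad7-KO (adjusted p = 0.00286), and Id1 of -0.73 (adjusted p = 0.00507).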

How the data were processed

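RNA-Seq was performed on 12 libraries of poly-A RNA from mouse cardiac fibroblasts, 3 in each of 4 conditions taken from the sample labels. Per gene, the authors deposited unnormalized read counts as whole numbers, FPKM values, a length and coordinates. The submitters' processing notes name CASAVA, TopHat2 2.0, Cufflinks 2.1.1 and HTSeq 0.6.1, and the builds mm10 and GRCm38.p6. The deposited FPKM values scale every count by the library's total and the length of the gene. All 10 genes overlapped their GENCODE M21 interval, and coordinates are those of the deposited table, as GRCm38.

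The counts of all 12 libraries went into 1 robust quasi-likelihood model in edgeR 4.0.16 (R 4.3.3), with TMM scaling and genes filtered by filterByExpr (minimum count 10). The conditions shared 1 estimate of each gene's spread, although unstimulated control libraries differed more among themselves than unstimulated Smad7-KO libraries did. Adjusted p values are Benjamini-Hochberg values over the 15150 genes tested, and 0.05 or less was taken as past the test. The standard error (SE) is the size of a log2 fold change over the square root of its F statistic. CPM are scaled by TMM. The interaction is the Smad7-KO effect with TGF-β1 minus that without. With 3 libraries against 3, an exact two-sided permutation test cannot go below p = 0.1, so single values were given none. The fitting was tested on simulated data.

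Alternatives were DESeq2 1.42.0, DESeq2 size factors in edgeR, only the libraries of the comparison, an unfiltered table, limma 3.58.1 on log2(FPKM + 1) and log2(FPKM + 0.1) where 3 libraries reach an FPKM of 1, the replicate number as a block, taking out the trend with gene length per library (loess, span 0.3), and leaving out each library. The 10 genes and the other lists were chosen with earlier results of these data known. Named from the other lists were up to 5 genes per list and comparison with the largest absolute change past the test, and markers as values. For Id1, Id3 and Grem1 the 5 genes with the highest Pearson correlation were named, where the average log2 CPM was 1 or more.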

Additional observations from a re-analysis of the deposited data

Results flagged for a closer look

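Id2 differed between stimulations in the direction of its Smad7-KO libraries. Every Smad7-KO library lay below every control library in unstimulated cells, and every Smad7-KO library lay above every control library with TGF-β1. The difference between both Smad7-KO effects was 1.17 on the log2 scale (edgeR's quasi-likelihood test, adjusted p = 0.786 over all genes tested), so it did not pass the adjustment. It passed with DESeq2 (adjusted p = 0.0206), with the length trend removed (adjusted p = 0.00981) and without unstimulated control library 3 (adjusted p = 0.0456). Without unstimulated control library 2 it was 0.90 and did not pass (adjusted p = 0.0742). The cause was not tested. No other of the 10 genes changed sides in this way.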

How the results depend on the processing

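With Smad7-KO in unstimulated cells 4 of the 10 genes passed the test, and 3 to 5 did under every alternative. In stimulated cells 2 passed, 5 with the length trend removed, and 1 to 2 when a library of the comparison was left out (1 without TGF-β1 control library 2 or 3 or any TGF-β1 Smad7-KO library), and 3 without unstimulated control library 2 or 3, which enter the joint model only. For TGF-β1 in control cells 3 passed, 5 with DESeq2 or the length trend removed, 0 with only the libraries of the comparison, and 0 to 5 when a library of the comparison was left out: 1 without unstimulated control library 1, 5 without its library 3, and 0 without TGF-β1 control library 1 or 3. For TGF-β1 in Smad7-KO cells 3 passed, 5 with only the libraries of the comparison or the length trend removed, 2 to 3 when a library of the comparison was left out, and 4 without unstimulated control library 2 or 3. For the interaction 0 passed (4 at an unadjusted p under 0.05), 2 with DESeq2, 3 with the length trend removed and 0 to 2 when a library was left out, where Id1 and Id2 passed without unstimulated control library 3. The causes were not tested. All genes tested gave 3907, 1962, 1268 and 1550 calls in the 4 comparisons, and 660 to 5373, 1500 to 4453, 391 to 2278 and 1263 to 3792 under the alternatives that kept all libraries.

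Signs reversed for Smad1, Id3 and Bmpr2. Smad1 with Smad7-KO in stimulated cells was -0.016 and -0.017 with limma at both pseudocounts and -0.020 with the length trend removed. When a library was left out it ran from -0.029 to 0.079 there, from -0.12 to 0.027 with Smad7-KO in unstimulated cells and from -0.072 to 0.026 with TGF-β1 in Smad7-KO cells. Id3 with TGF-β1 in Smad7-KO cells ran from -0.014 to 0.18. Bmpr2 with Smad7-KO was -0.27 in unstimulated and -0.0030 in stimulated cells with the length trend removed.

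The replicate numbers were not taken to pair the libraries. Correlations of same-numbered deviations ran from -0.205 to 0.524, with 1 of 12 over 0.1. The highest was between library 2 of unstimulated control and library 2 of TGF-β1 control cells. Both of these also ran with gene length in the same direction (Spearman's rho -0.536 and -0.372). With 3 libraries per condition, such correlations cannot show whether same-numbered libraries share a source. With the replicate number as a block, 4, 2, 2 and 3 of the 10 genes passed in the 4 comparisons and 0 in the interaction. Bmpr2 then missed the threshold with TGF-β1 in control (adjusted p = 0.0880) and Smad7-KO cells (adjusted p = 0.0736), and Id1 passed with TGF-β1 in Smad7-KO cells (adjusted p = 0.0466). What limits precision more, depth or the number of libraries, was not tested.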
